A study of Mus musculus with 4 samples.

Results

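The SR kinases, Tra2 and Srrm genes are 10 genes of the SR protein system: Clk1, Clk2, Clk3, Clk4, Srpk1, Srpk2, Tra2a, Tra2b, Srrm1 and Srrm2. They were taken by gene symbol from a count table of 55401 genes, and each symbol matched 1 row. SR proteins carry long runs of arginine-serine dipeptides (RS domains) and bind exonic enhancers, where they help the U1 small nuclear ribonucleoprotein (snRNP) find 5' splice sites. SRPK kinases phosphorylate the RS domain, largely in the cytoplasm, and so prime SR proteins for import into the nucleus. CLK kinases phosphorylate them further in the nucleus and release them from nuclear speckles, and Tra2 and Srrm proteins are SR-related splicing activators and speckle components. Several of these genes are known to control their own RNA by splicing: Tra2a and Tra2b through exons whose inclusion stops translation, and Clk1 and Clk4 through introns kept in nuclear RNA.

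The RNA came from embryonic stem cells (mouse line 129/Ola) whose SNRNP70, also called U1-70K and specific to the U1 snRNP, bore a degron. The auxin IAA makes cells destroy a protein with this tag. One group of 2 libraries had no auxin (0 h, called WT in the labels although the titles name the SNRNP70AID line), and the other group of 2 had IAA for 5 h (labelled SNRNP70 degration). All cells grew in serum medium with leukemia inhibitory factor, and all RNA was labelled with 4-thiouridine (4sU), so that newly made RNA could be coupled to biotin and caught on beads. The series text calls the 2 replicates of each group independent. Nothing in the labels says whether they came from separate cultures or clones. The p-values therefore measure the spread between these libraries, and how far that spread is technical is not stated.

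Library totals ran from 7174772 to 17752887 counts. Of the 10 genes all passed the filter on low counts, in both groups, and the lowest count of any of the 10 in any library was 295 (Srpk2 at 5 h, replicate 2). Labelled Snrnp70 RNA was 249 and 243 CPM (counts per library size, which TMM factors adjust here) at 0 h and 450 and 474 CPM at 5 h, but protein and not RNA is the degron's target, so these values are no check of the labels. All 10 stem cell markers examined averaged at least 5 CPM at both times and summed to 4055 to 4211 CPM at 0 h and 4138 to 4248 CPM at 5 h. Single markers moved apart within that sum: Sox2 went from 425 and 373 CPM to 670 and 782.5 CPM, and Tfcp2l1 from 1044 and 1011 CPM to 760 and 674 CPM. The fibroblast feeder, endoderm, mesoderm, neural and trophoblast marker lists each summed to at most 23.7 CPM in any library, with Col3a1, Postn and Cdx2 at 0 in every library. The neural sum was 10.5 to 13.8 CPM at 0 h and 17.4 to 23.7 CPM at 5 h, and its part in the results was not tested. In such bulk samples a change in the cells and a change in the RNA per cell cannot be told apart.

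Of the 10 genes, 7 rose after auxin, 1 fell and 2 did not pass. The test was edgeR's quasi-likelihood F-test, with a Benjamini-Hochberg adjusted p under 0.05 over all 17344 tested genes as the threshold. Among all tested genes 22% rose and 21.2% fell, 43.2% together. The 10 genes were chosen with earlier results of these data known, so their counts are a description. Both 5 h libraries lay above both 0 h libraries for 8 of the 10 genes and below for 1, beside 36% and 37.5% of all tested genes. Both Tra2 genes, both Srrm genes and Clk1, Clk2 and Clk3 were the risers, Srpk2 was the faller, and Clk4 and Srpk1 did not pass. The median log2 fold change of the 10 was 0.88, beside -0.02 for all tested genes. These counts depend on how libraries are scaled. Scaled to library totals, 6 of the 10 rose and 1 fell (13.2% and 30.3% of all genes). Scaled to the mitochondrially encoded genes, 2 of the 10 rose and 4 fell (2.28% and 51.2%). The median of all tested genes was -0.28 and -0.86 under those scalings, so a change means a change against the rest of a library's RNA.

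**Figure D1:**
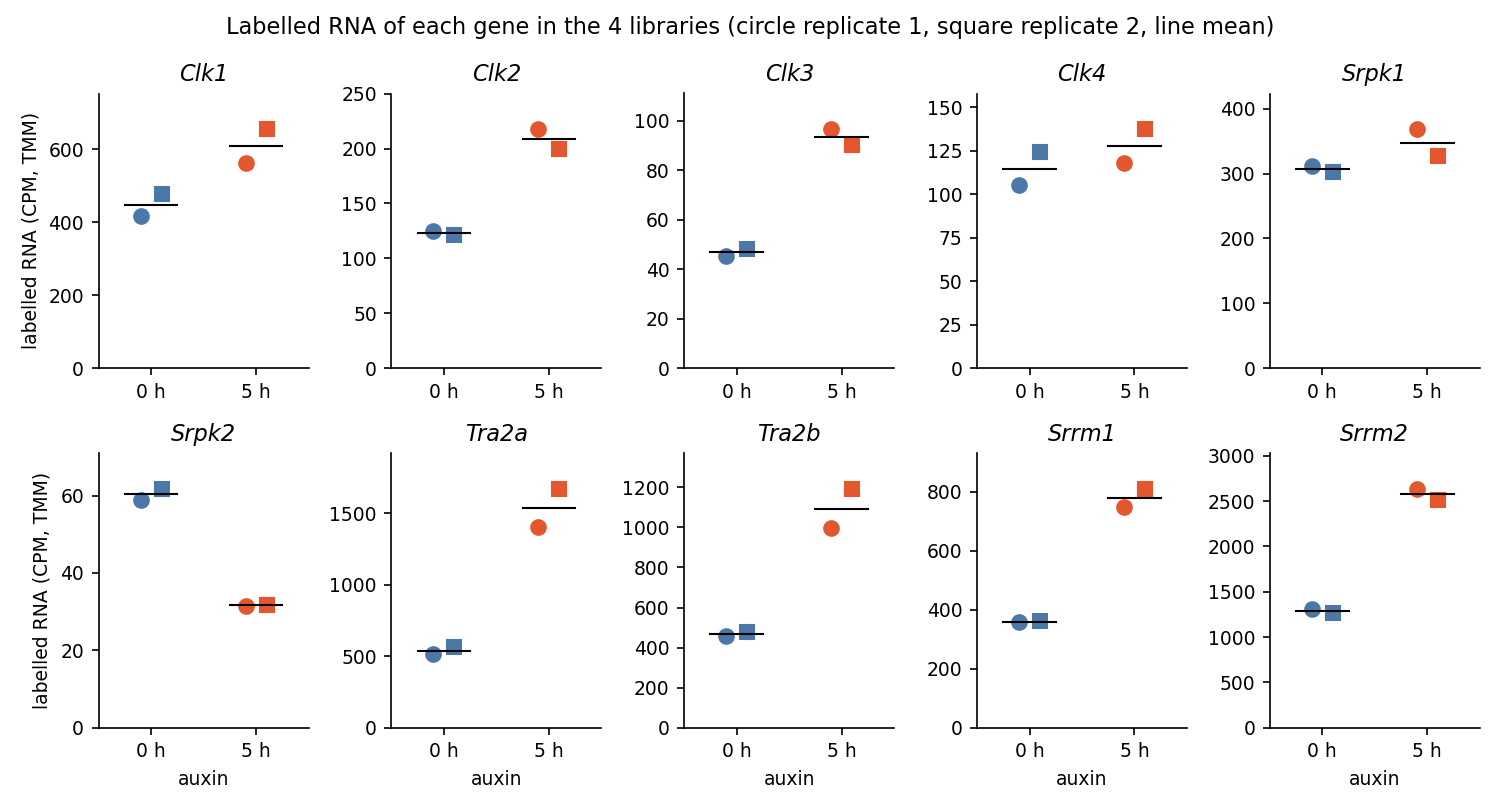
Labelled RNA (TMM-normalised CPM, vertical axis from 0, a separate scale per gene) in the 2 libraries at 0 h (blue) and the 2 at 5 h of auxin (orange), with circles for replicate 1, squares for replicate 2 and lines for the means. The groups do not overlap for 9 of the 10 genes on this scale, the exception being Clk4. Among all tested genes 36% lay higher and 37.5% lower without overlap.

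Tra2a and Tra2b encode closely related proteins that bind purine-rich exonic enhancers and activate the exons that hold them. Tra2a was at 515 and 564 CPM at 0 h and at 1406 and 1669 CPM at 5 h. Every 5 h library was thus more than double every 0 h library, and the log2 ratio of a 5 h to a 0 h library ran from 1.32 to 1.70. Its log2 fold change was 1.51 ± 0.10 (SE, n = 2 per group), or 2.85-fold, with edgeR's Benjamini-Hochberg adjusted p = 8.35e-06. Tra2b was at 458 and 479 CPM at 0 h and at 995 and 1191 CPM at 5 h. The 5 h libraries again lay far above the 0 h libraries. Tra2b rose by 1.22 ± 0.10 on the log2 scale, or 2.33-fold (edgeR, adjusted p = 1.95e-05). These were the only 2 of the 10 genes that rose under all 3 scalings, with log2 fold changes of 0.65 (Tra2a) and 0.36 (Tra2b) when scaled to mitochondrial genes (edgeR, adjusted p = 0.00106 and 0.0369).

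The ratio of Tra2a to Tra2b within a library does not depend on scaling. On the log2 scale it was 0.17 and 0.24 at 0 h and 0.50 and 0.49 at 5 h, so Tra2a gained 0.29 more than Tra2b, a 1.22-fold shift, with no overlap between the groups. With 2 against 2 libraries the exact 2-sided permutation test cannot go below p = 0.333, so this and the other ratios below are descriptions. The file also lists a pseudogene, Tra2b-ps, at 0 in every library.

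As both Tra2 genes and both Srrm genes rose, the stretch before the starts of the 10 genes was read from RefSeq promoter entries (GRCm38.p6, to which mm10 corresponds), which cover 9 of the 10 genes and not Clk1. The 250 bases before each start were searched on both strands for short motifs chosen after the sequences were seen. The letters GACGTCA, the core of the cAMP response element, were found in 3 of 9 genes (Tra2a, Tra2b and Clk4) and in 3.16% of the 27025 genes with an entry. The full palindrome TGACGTCA, which contains that core, was found in 2 of 9 (Tra2a and Clk4) and in 1.77% of genes. These shares, and those of the motifs further below, cover all genes with an entry, whether or not they were tested here. Shares among tested genes alone were not computed. Below, 30 bases around each match are given 5′ to 3′ in the gene's direction, with the match in capitals, to set the paired Tra2 genes beside Clk4.
Tra2a, chr6:49264085-49264114, minus strand: ggggttcgcgacGACGTCAtcacaggtccg
Tra2a, chr6:49264061-49264090, minus strand: ggtccgcccctTGACGTCAggcgccgggga
Tra2b, chr16:22266051-22266080, minus strand: ggcggtaaggtaGACGTCAcgtccggtttg
Clk4, chr11:51263038-51263067, plus strand: cccgccgtcccTGACGTCAcagacccctcg
The Tra2a matches begin 50 and 27 bases before the start in its entry, which lies 196 bases inside the longest RefSeq span of the gene. In Tra2b the match begins 63 bases and in Clk4 65 bases before the start. Of the genes with a match, Tra2a and Tra2b rose and Clk4 did not pass. Of those without a match in this window, Srrm1, Srrm2, Clk2 and Clk3 rose, Srpk1 did not pass and Srpk2 fell. The part of the motif in these values was not tested.

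Other motifs were spread over the families. The GC box GGGCGG was found in 8 of 9 genes, all but Srrm2, and in 35.4% of all genes with an entry, tested here or not. CCAAT was found in 4 of 9 (Clk2, Srpk2, Tra2a and Srrm1) against 37.5%, and TATAAA in 0 of 9 against 14.3%. The ETS letters CCGGAAG were found in Clk3 (7.83% of genes) and the E-box CACGTG in Clk2 (6.86%). Srrm1 alone held the NRF1 palindrome, found in 0.877% of genes, at chr4:135353279-135353308 on the minus strand.
Srrm1: tggtgcgcttGCGCATGCGCgtcgttctcg
A match is a description of the letters and was not set against any binding data.

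Srrm1 and Srrm2 encode SRm160 and SRm300, large RS-rich coactivators of splicing, and Srrm2 is a scaffold of nuclear speckles. Srrm1 was at 359 and 362 CPM at 0 h and at 749 and 810 CPM at 5 h. Its 0 h libraries were nearly the same, and both 5 h libraries were about double them. Srrm1 rose by 1.11 ± 0.09 on the log2 scale, or 2.16-fold (edgeR, adjusted p = 1.47e-05). Srrm2 was at 1315 and 1262 CPM at 0 h and at 2635 and 2517.5 CPM at 5 h. Here too the groups stood well apart, and replicate 2 differed from replicate 1 by -0.059 (0 h) and -0.066 (5 h) on the log2 scale. Srrm2 rose by 1.00 ± 0.08 (edgeR, adjusted p = 1.75e-05). With mitochondrial scaling the values were 0.26 for Srrm1 and 0.16 for Srrm2, and neither passed (edgeR, adjusted p = 0.141 and 0.361). The log2 ratio of Srrm1 to Srrm2 was -1.87 and -1.80 at 0 h and -1.82 and -1.64 at 5 h, which overlapped.

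The Srrm2 locus, on chromosome 17 from 23790527 to 23824741 (mm10), overlaps other genes. The long non-coding gene Gm52285 shares 13246 bases with it and has no counts of its own, while Mir5125 and Elob are counted too. Mir5125, a microRNA gene whose whole hairpin lies inside the Srrm2 span, had 63 and 26 counts at 0 h and 155 and 93 at 5 h, and rose by 1.66 ± 0.29 on the log2 scale (edgeR, adjusted p = 0.00101). Elob, an elongin subunit gene that meets the Srrm2 end with 2 shared bases, rose by 0.98 ± 0.22 (edgeR, adjusted p = 0.00431). No source used here says whether strand was used in counting. Reads of Mir5125, of Gm52285 and of Srrm2 therefore cannot be told apart. Srrm1, on chromosome 4 from 135320484 to 135353277, and both Tra2 genes overlap no other RefSeq gene. Tra2a lies on chromosome 6 from 49243921 to 49264248 and Tra2b on chromosome 16 from 22244552 to 22266005.

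The CLK kinases differed among themselves. They are dual-specificity kinases of the nucleus, and Clk1 and Clk4 are the closest pair by sequence. Clk3 was at 45.3 and 48.4 CPM at 0 h and at 96.5 and 90.3 CPM at 5 h. Its 5 h libraries were about double its 0 h libraries. It rose by 1.00 ± 0.11 on the log2 scale (edgeR, adjusted p = 9.59e-05), and was at 0.16 with mitochondrial scaling, where it did not pass. Clk2 was at 125 and 121 CPM at 0 h and at 217 and 200 CPM at 5 h. Both 5 h values again stood above both 0 h values. Clk2 rose by 0.77 ± 0.10 (edgeR, adjusted p = 0.000152), and with mitochondrial scaling its value turned to -0.073 without passing.

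Clk1 was at 417 and 479 CPM at 0 h and at 563 and 655 CPM at 5 h. Both 5 h libraries lay above both 0 h libraries, and in both groups replicate 2 was higher, by 0.20 (0 h) and 0.22 (5 h) on the log2 scale. Clk1 rose by 0.44 ± 0.10, or 1.36-fold (edgeR, adjusted p = 0.00580). This call was lost with library totals (0.17, adjusted p = 0.178) and without 0 h replicate 1 (0.35, adjusted p = 0.0869), and with mitochondrial scaling Clk1 was lower (-0.41, adjusted p = 0.0281). Over 15 alternatives its adjusted p by edgeR, DESeq2 or limma-voom ran from 2.15e-05 to 0.178. Clk4 was at 105 and 124 CPM at 0 h and at 118 and 137 CPM at 5 h, and the groups overlapped. Replicate 2 was again the higher library in both groups, by 0.24 and 0.22. The Clk4 log2 fold change was 0.16 with a 95% interval from -0.11 to 0.42, and it did not pass (edgeR, adjusted p = 0.321). It was -0.11 with library totals, also not past, and -0.70 with mitochondrial scaling, where it passed as lower (edgeR, adjusted p = 0.00383).

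**Figure D2:**
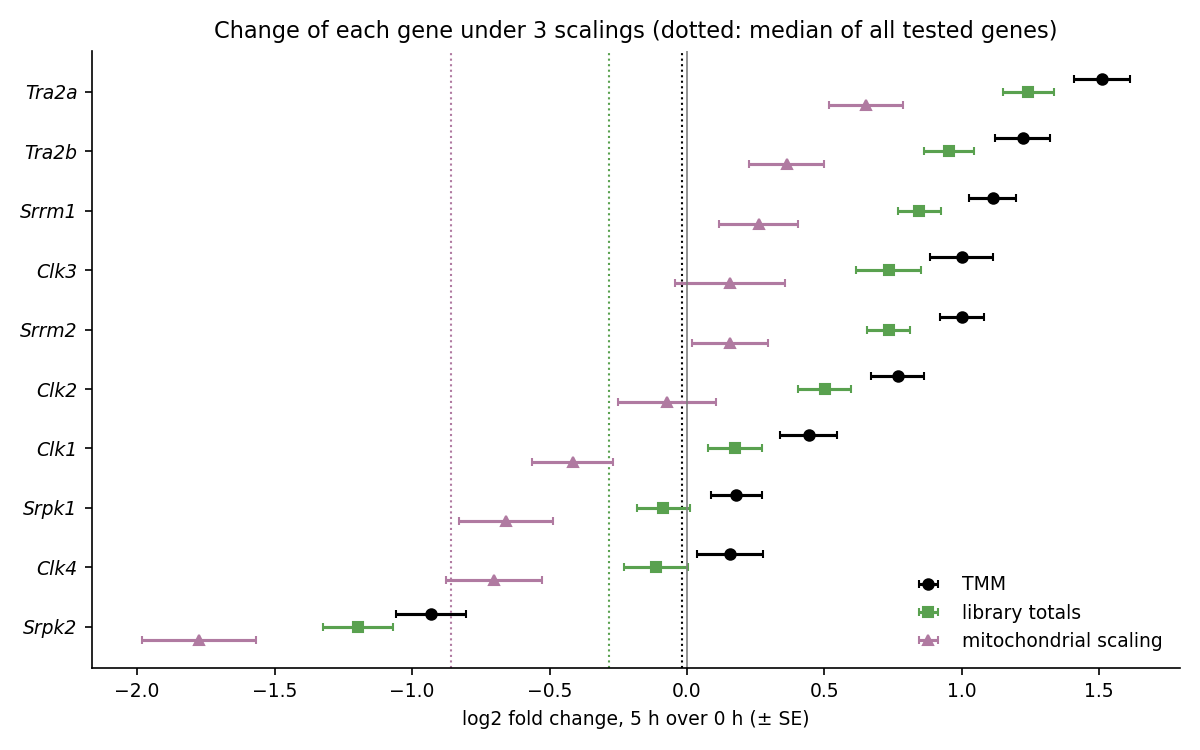
Log2 fold change of each gene, 5 h over 0 h (horizontal axis, bars ± SE from edgeR), with TMM (black circles), library totals (green squares) and mitochondrial scaling (purple triangles), and the median of all tested genes under each scaling as a dotted line. Tra2a, Tra2b, Srrm1, Srrm2 and Clk3 lie above 0 and Srpk2 below 0 under all 3 scalings. Clk1, Clk2, Clk4 and Srpk1 change sign with mitochondrial scaling, and Clk4 and Srpk1 also with library totals.

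Ratios within a library set the CLK genes apart from each other without any scaling. The log2 ratio of Clk3 to Clk4 was -1.21 and -1.36 at 0 h and -0.29 and -0.60 at 5 h, a shift of 0.84, or 1.79-fold. The Clk2 to Clk4 ratio shifted by 0.61, from 0.24 and -0.04 to 0.88 and 0.54. The Clk1 to Clk4 ratio went from 1.99 and 1.95 to 2.25 and 2.25. That shift of 0.29 was small but even across replicates (SD 0.030 at 0 h and 0.00098 at 5 h, n = 2 each), although each gene alone varied more. Against Clk3 the Clk1 ratio moved by -0.55, and the ratio of Clk2 to Clk3 by -0.23. Against Clk2 it moved by -0.32, a value that was -0.15 without 5 h replicate 1, -0.20 without 0 h replicate 2 and -0.49 without 5 h replicate 2. In all 6 CLK pairs the groups did not overlap, and the order of the changes was Clk3, Clk2, Clk1, Clk4. The 6 pairs share genes and are not independent. How many other gene pairs lack overlap was not computed. For single tested genes, 36% lay higher and 37.5% lower without overlap. A ratio of 2 genes also reflects their lengths, so only its change is read.

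**Figure D3:**
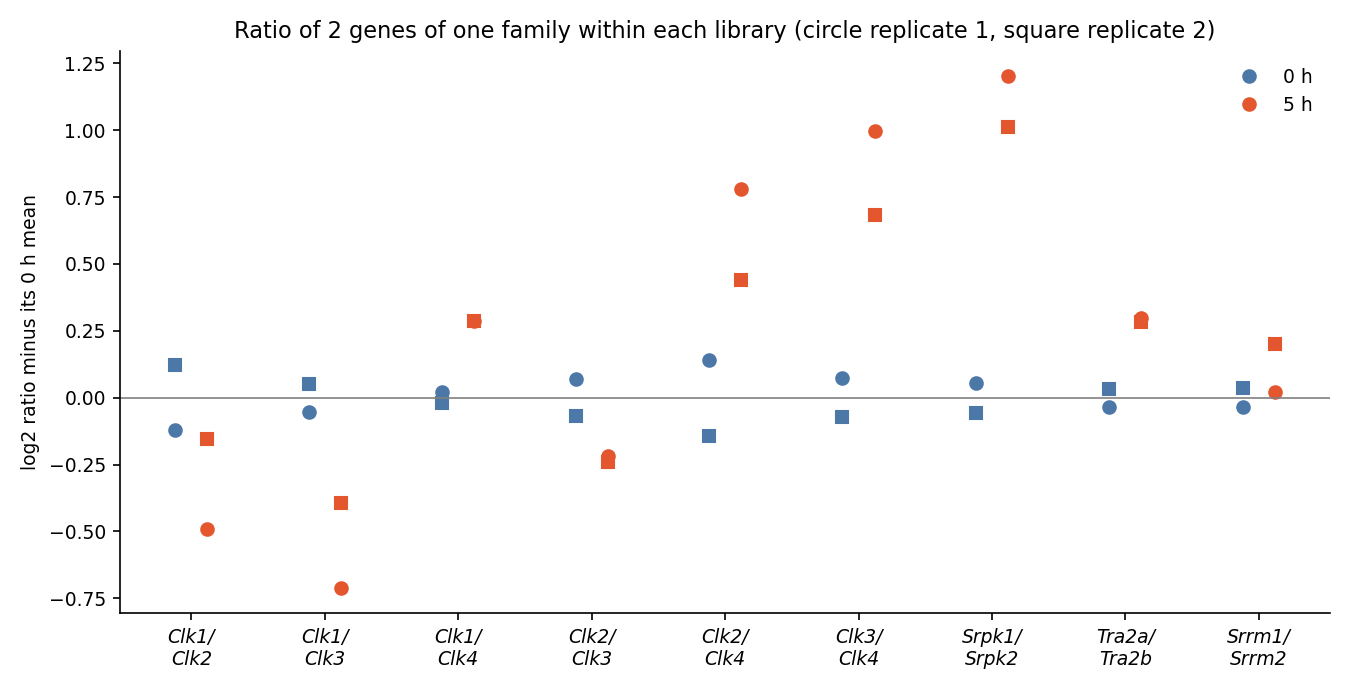
Log2 ratio of the counts of 2 genes of one family in each library, minus the mean of that ratio at 0 h (vertical axis), for the 9 pairs within families, with 0 h in blue, 5 h in orange, circles for replicate 1 and squares for replicate 2. In 8 of the 9 pairs the groups do not overlap, and the Srpk1 to Srpk2 ratio moves by 1.11. The CLK pairs share genes, and how many other gene pairs lack overlap was not computed.

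The SRPK kinases went separate ways. Srpk2 was at 58.9 and 61.7 CPM at 0 h and at 31.4 and 31.8 CPM at 5 h. Replicates were close at both times, and the 5 h libraries lay far below the 0 h libraries. It fell by 0.93 on the log2 scale (SE 0.13, n = 2 per group), or 1.91-fold, with edgeR's adjusted p = 0.000246. Srpk2 was lower and past the threshold under all 15 alternatives, at -1.20 with library totals and -1.78 with mitochondrial scaling. Srpk1 was at 312 and 302 CPM at 0 h and at 368 and 327 CPM at 5 h, so that its libraries did not overlap but lay near each other. Its log2 fold change was 0.18 with a 95% interval from -0.02 to 0.38 and did not pass (edgeR, adjusted p = 0.141). It passed without 5 h replicate 2 (0.27, adjusted p = 0.0221), was -0.085 with library totals and passed as lower with mitochondrial scaling (-0.66, adjusted p = 0.00525). Over its 15 alternatives the adjusted p ran from 0.00525 to 0.502. The log2 ratio of Srpk1 to Srpk2 was 2.40 and 2.29 at 0 h and 3.55 and 3.36 at 5 h, a shift of 1.11, or 2.16-fold, the largest of the 9 pairs compared within families.

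Span is one way in which Srpk2 differs from the other 9 genes. On chromosome 5 from 23503356 to 23684642 it spans 181.3 kb, whereas the others span 12.1 kb (Clk1) to 34.9 kb (Srpk1). The median log2 fold change was -0.29 among tested genes over 100 kb, and 29.8% of these 1710 genes fell and 9.24% rose. Srpk2 stood at the 18.0th percentile of that class. Genes of 20 to 50 kb had a median of -0.21, and among them Tra2a stood at the 99.0th, Tra2b at the 98.1st, Srrm1 at the 97.3rd, Srrm2 at the 96.1st and Srpk1 at the 69.5th percentile. Genes of 5 to 20 kb, the class of the CLK genes, had a median of -0.01. There Clk3 was at the 92.2nd percentile, Clk2 at the 85.5th, Clk1 at the 71.2nd and Clk4 at the 57.2nd. The part of span in the Srpk2 result was not tested.

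**Figure D4:**
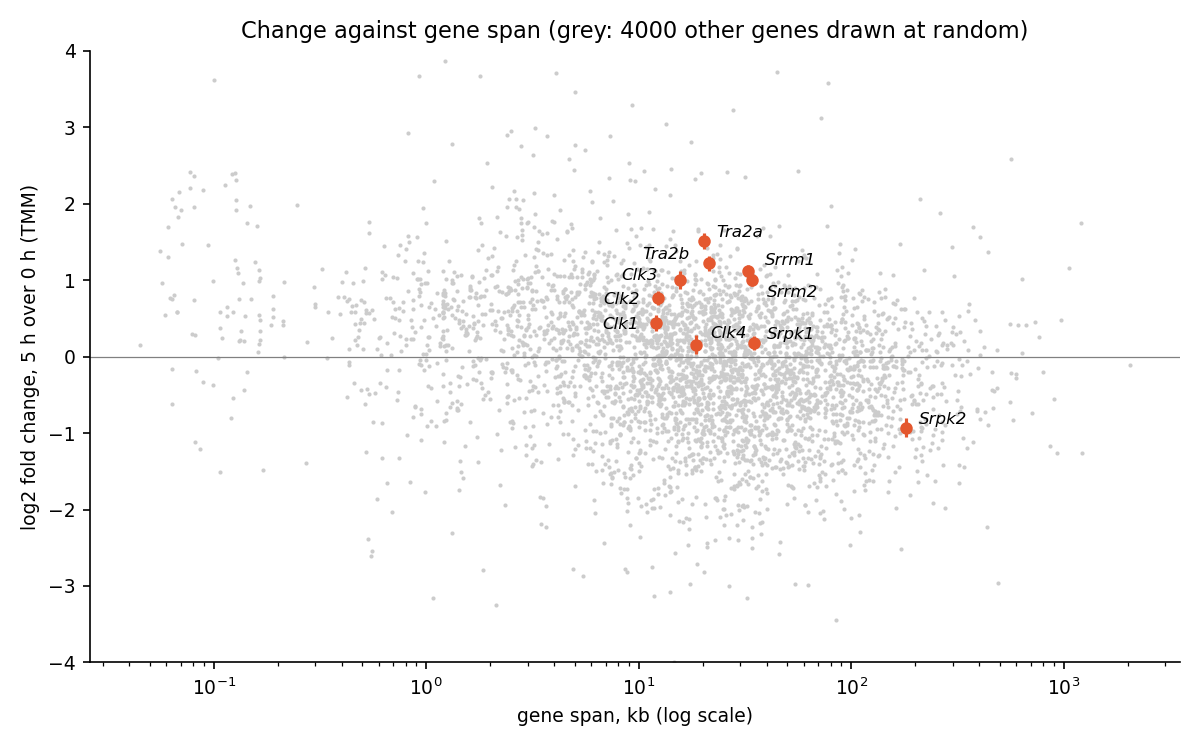
Log2 fold change, 5 h over 0 h with TMM (vertical axis, bars ± SE), against gene span in kb (horizontal log axis) for the 10 genes in orange and for 4000 other tested genes in grey, of which 26 lie beyond the vertical axis. Srpk2 lies far to the right at 181.3 kb and below 0, and the 5 genes between 20 and 50 kb lie above 0 with TMM, of which Srpk1 falls below 0 under both other scalings.

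The genes beside or within the 10 gave these values. Scamp3, which starts 303 bases after Clk2, had a log2 fold change of 0.01 ± 0.16, and Edc3, which ends 457 bases before Clk3, one of -0.01 ± 0.11, and neither passed. Hcn3, on the other side of Clk2, was at -1.19 ± 0.45 and did not pass (edgeR, adjusted p = 0.0547). Gm12569, before Clk4 (-0.60 ± 0.29), and Flywch2, before Srrm2 (-2.03 ± 1.16), did not pass either. A RefSeq model, Gm45927, covers the whole of Clk2 and was not in the table. Ppil3, after Clk1, was at 0.01 ± 0.15 and did not pass, while Bzw1, on its other side, rose by 0.63 ± 0.09 (edgeR, adjusted p = 0.000231), more than Clk1. Igf2bp3, before Tra2a, was at 0.21 ± 0.11 and did not pass. Around Srpk2, Kmt2e, which shares 880 bases with it, fell by 0.42 on the log2 scale (edgeR, adjusted p = 0.0132). The long non-coding gene 5031425E22Rik, which ends 69002 bases before Srpk2, fell by 0.84 (edgeR, adjusted p = 0.00285). On the other side AI506816, which starts 7618 bases after Srpk2, rose by 0.40 (edgeR, adjusted p = 0.0139). BC049762, which shares 549 bases with Clk4, was at 0 in every library.

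Most genes listed for the wider SR network also rose with TMM. The list was chosen with earlier results of these data known, so the counts below only describe it. Of 55 listed genes that encode SR proteins, their other kinases, phosphatases and importer, and other SR-related proteins, 54 were tested, 40 rose and 1 fell, beside 22% and 21.2% of all genes. When scaled to library totals 24 of them rose and 4 fell (13.2% and 30.3% of all genes). Scaled to mitochondrial genes 3 rose and 21 fell (2.28% and 51.2% of all genes). Their median log2 fold change was 0.56 with TMM, and the other scalings gave 0.29 and -0.28 in that order.

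All 11 SR proteins, the substrates of these kinases, rose with TMM, beside 22% of all tested genes. Library totals left 9 risers (13.2% of all genes) and mitochondrial scaling 2 (2.28%), and none fell under either (30.3% and 51.2%). Their median was 0.92. Srsf3 had the highest value among those of at least 5 CPM, 1.46 ± 0.09, then Srsf7 (1.28 ± 0.09) and Srsf6 (1.07 ± 0.09), and Srsf4 (0.58 ± 0.10), Srsf11 (0.65 ± 0.09) and Srsf9 (0.74 ± 0.17) had the lowest. Srsf12, with a mean under 5 CPM, was at 1.53 ± 0.47. Tra2a, at 1.51, lay between Srsf12 and Srsf3, and Tra2b between Srsf7 and Srsf6, while Clk1, Clk4 and both Srpk genes lay below the whole range.

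Among 11 tested genes for other kinases that act on SR or speckle proteins, 8 rose, 1 fell and 2 did not pass with TMM, against 0 higher and 5 lower with mitochondrial scaling, where 2.28% and 51.2% of all genes were. Dyrk1b (1.07 ± 0.17), Akt1 (0.75 ± 0.14) and Dyrk3, a kinase that dissolves speckles (0.71 ± 0.09), had the highest values. Prpf4b (0.37 ± 0.11) and Dyrk1a (0.24 ± 0.08) rose least. Hipk2 was the one that fell, from 160 and 160 CPM to 123 and 121 CPM, a change of -0.39 ± 0.09 (edgeR, adjusted p = 0.00673). That call was lost without either of the 0 h replicates. Srpk3, a muscle kinase, had too few counts to be tested.

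Of 6 genes on the phosphatase side and for nuclear import, 4 rose and 2 did not pass, and with mitochondrial scaling 0 rose and 3 fell. They included the phosphatase catalytic genes Ppp1cc (0.58 ± 0.09) and Ppp1ca (0.45 ± 0.11), the phosphatase regulator Ppp1r8 (0.33 ± 0.12), and Tnpo3 (0.56 ± 0.08), the importin of phosphorylated SR proteins. Of 26 other SR-related genes, 17 rose and 9 did not pass, and with mitochondrial scaling 1 rose and 13 fell. These 2 groups stand beside 22% higher and 21.2% lower among all tested genes with TMM. With mitochondrial scaling those shares were 2.28% and 51.2%, and 13 of 26 lies near the latter. Cactin went from 38.9 and 36.7 CPM to 111 and 101 CPM (1.48 ± 0.12). Pnn (1.20 ± 0.12) and Rnps1 (0.99 ± 0.09), both partners of the exon junction complex, followed, and Thrap3 (0.36 ± 0.09), Srek1 (0.34 ± 0.10) and Scaf8 (0.29 ± 0.09) rose least. Among Srrm relatives, Srrm3 (1.38 CPM at 5 h) and the neural Srrm4 (3.60 CPM at 5 h) were low and did not pass.

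**Figure D5:**
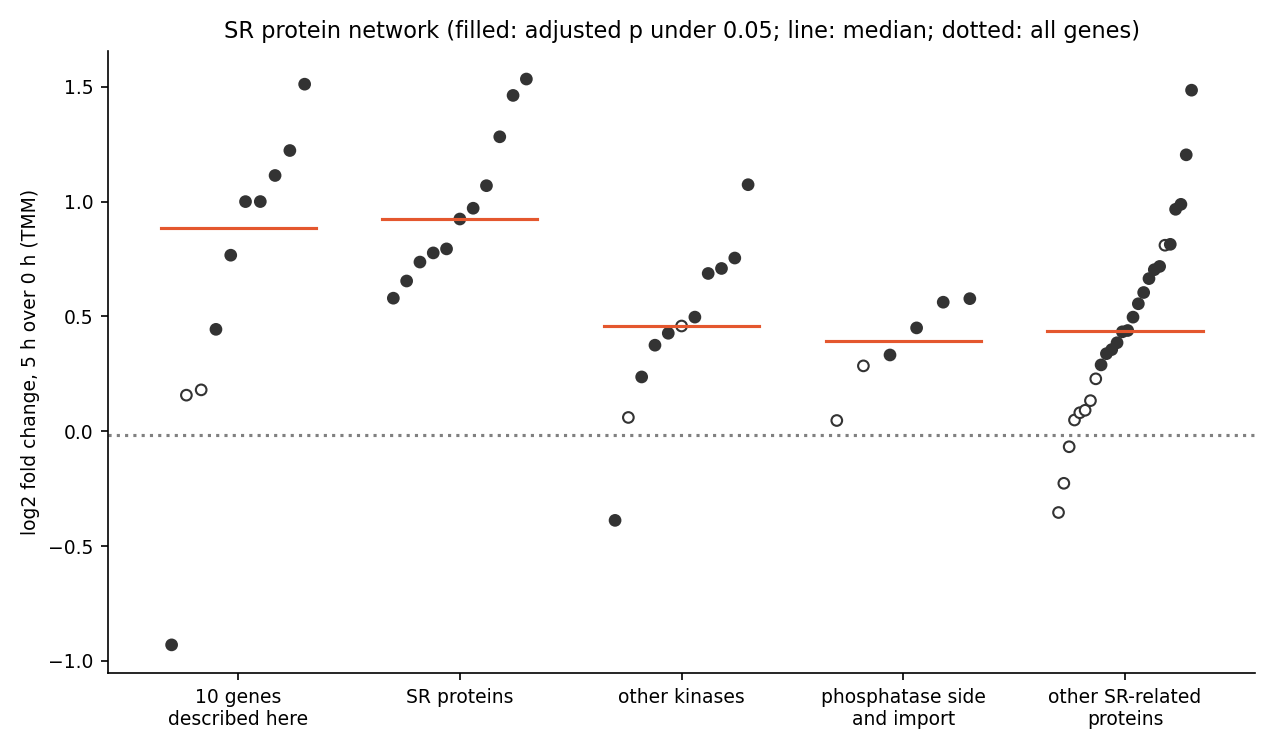
Log2 fold change, 5 h over 0 h with TMM (vertical axis), of the 10 genes described here and of 54 other genes of the SR network in 4 groups, 1 point per gene, filled where edgeR's adjusted p was under 0.05, with group medians in orange and the median of all tested genes dotted. Srpk2 at -0.93 is the lowest point, and Hipk2 is the other filled point below 0. With mitochondrial scaling 21 of the 54 fell, beside 51.2% of all tested genes.

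The genes whose pattern over the 4 libraries was most like that of Tra2a, by Euclidean distance between centred log2 CPM among 9949 candidates, were Akap5 (distance 0.049), Fancf (0.056) and Snhg1 (0.082). Their log2 fold changes were 1.58, 1.55 and 1.59, beside 1.51 for Tra2a. For Srpk2 the nearest were Snapin (0.017), Ston2 (0.034) and Pnrc2 (0.036), with log2 fold changes of -0.94, -0.91 and -0.93. With only 4 libraries such likeness is mostly likeness of the fold change.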

How the data were processed

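Newly made RNA was sequenced in 4 libraries, 2 at 0 h and 2 at 5 h of auxin. The authors deposited whole-number gene counts, treated here as estimated counts: per the file headers the row names follow StringTie's export of counts, which it derives from coverage. The tools named in the submitters' processing notes are HISAT2 (2.2.1), then StringTie (2.2.1) and also DESeq2 (1.42.0), and the build is mm10; the notes do not say which made the table. Annotation, strand setting, labelling time and spike-ins are not given in the sources used here. All values were whole numbers, so none was rounded.

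Genes kept by filterByExpr (17344) were fitted in edgeR 4.0.16 (TMM, robust quasi-likelihood, no replicate block), and the SE is the log2 fold change over the square root of F. Benjamini-Hochberg adjustment covered all tested genes, with 0.05 as the threshold. Ratios used counts plus 0.5. The fit was tested on simulated data. There were 15 alternatives, with DESeq2 1.42.0 and limma 3.58.1 (voom) among them. A floor of 3 counts was 0.169 to 0.418 CPM, for counting error only. Positions and spans are RefSeq's (GRCm38.p6), with spans known for 86.6% of tested genes.

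The members and lists were chosen with earlier results of these data known. Named were the 10 genes, Snrnp70, the 3 highest and 3 lowest past the threshold with at least 5 CPM in each of 4 network groups, genes next to or overlapping the 10, and the 3 nearest patterns to the highest and lowest of the 10. Pseudogenes of the 10 were named too. Srpk3, Srrm3, Srrm4, Srsf12, Cir1, Ppig, Rbm25, Col3a1, Postn, Cdx2, Sox2 and Tfcp2l1 were named outside this rule, after their values were seen. Same-numbered replicates hardly deviated together across 16380 genes (r = 0.046), so the numbers were not treated as pairs. Among the 10 genes, however, all but Clk3 deviated in the same direction at 0 h and 5 h. Replicate 2 minus replicate 1 on the log2 scale was 0.24 and 0.22 for Clk4, and 0.095 and -0.097 for Clk3. With the replicate block, which is among the alternatives, the SE of Clk1 was 0.063 instead of 0.104.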

Additional observations from a re-analysis of the deposited data

How the results depend on the processing

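Of 150 alternative values for the 10 genes, 138 kept their direction and side of the threshold, 5 lost the call, 1 gained it and 6 changed sign. The sign changes were Clk1 (-0.41), Clk2 (-0.073), Clk4 (-0.70) and Srpk1 (-0.66) with mitochondrial scaling, and Clk4 (-0.11) and Srpk1 (-0.085) with library totals, and come with the shift of the median gene under these scalings. With mitochondrial scaling 2 of the 10 rose and 4 fell, and in the SR network 3 rose and 21 fell (2.28% and 51.2% of all tested genes). With library totals 24 network genes rose and 4 fell (Cir1, Hipk2, Ppig and Rbm25), beside 13.2% and 30.3% of all tested genes. Leaving out 1 library gave 6 to 8 higher and 1 lower among the 10, and 29 to 38 higher and 0 to 2 lower in the network. With 1 library left in a group, that library is assumed to vary like the others. The replicate block gave 7 higher and 1 lower of the 10 genes and 41 higher and 1 lower in the network. The share of all tested genes called with the block is not given here. What more depth would do for Clk4 and Srpk1 was not tested, and coverage-based counts may understate counting error.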
